A study of Homo sapiens with 56 samples.

Results

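The genes described here are 36 aminoacyl-tRNA synthetases, the enzymes that load amino acids onto their tRNAs, followed across 7 established human colorectal cancer cell lines treated with 2-methylisocitrate (2-MiCit). They were taken from a list of gene names and matched to the gene identifiers of the deposited count tables. All 36 had a row, among 16485 genes in the table of HCT116, DLD1, LoVo and SW948 (the first table) and 16454 genes in the table of HT29, SKCO1 and SW1417 (the second table). The list holds 20 enzymes of the cytosol and 16 of mitochondria, and no aspartyl enzyme is among them. In each line 4 libraries of cells given 10 mM 2-MiCit were compared with 4 libraries of cells given its vehicle, water, which makes 56 libraries in 14 groups, and the series as a whole concerns how a microbial metabolite alters the action of chemotherapy. The labels give every line as a wild-type epithelial line from colon, and they list no drug besides 2-MiCit. How long the cells were treated was not stated in these sources. Nothing in the labels says that the 4 libraries of a group are separate cultures, so the p-values reflect the spread among libraries, and that spread may be technical.

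Most synthetases join a single kind of amino acid to its tRNAs, and the loaded tRNAs are then brought to the ribosome by elongation factors. Nuclear genes encode both sets: most amino acids have a cytosolic enzyme and a separate mitochondrial enzyme with the suffix 2, whereas the glycyl enzyme GARS1 and the lysyl enzyme KARS1 serve both compartments from a single gene. Several cytosolic enzymes (EPRS1, IARS1, LARS1, MARS1, QARS1, RARS1 and KARS1 among those listed) sit in the multisynthetase complex with scaffold proteins. Uncharged tRNAs activate the kinase GCN2, which phosphorylates eIF2alpha and raises translation of the transcription factor ATF4, and several cytosolic synthetase genes are known targets of ATF4 in human cells. Mitochondria make glutaminyl-tRNA by a different route, in which a glutamate is loaded first and then amidated by the GatCAB complex.

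ATF4 binds, together with C/EBP proteins, to sites whose core can be written TGATGNAA on one strand and TTNCATCA on the other. The 250 bases before each annotated start were read from RefSeq (GRCh38.p14) for the 30 members with an entry, all except YARS1, TARS3, LARS1, VARS1, AARS2 and VARS2, and both strands were searched. The core was in the windows of 4 of the 30 genes (13.3%), and in 3.89% of the 27305 genes of the whole promoter table. Because the values of some of these genes are described in detail, the stretches around the 4 matches are shown, 5′ to 3′ on the strand of the gene, with the matching letters in capitals.
AARS1: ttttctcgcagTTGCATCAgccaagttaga
GARS1: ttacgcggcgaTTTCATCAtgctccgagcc
IARS1: cccgcattttcagcgcgTTGCATCAcctcc
YARS2: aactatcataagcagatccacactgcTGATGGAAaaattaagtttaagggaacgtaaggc
The alanyl gene's stretch lies at chr16:70289675-70289704 (minus strand) and also falls in an annotated exon of its neighbour DDX19B. The glycyl and isoleucyl stretches each overlap an exon that GENCODE 29 annotates for the gene itself, so they lie before one annotated start and within the gene's annotated span. The glycyl stretch is at chr7:30594834-30594863 (plus strand), before the second of the gene's annotated starts, the isoleucyl one at chr9:92293698-92293727 (minus strand), and the stretch of the mitochondrial tyrosyl gene at chr12:32756061-32756120 (minus strand). A match of letters is a description and not a measured binding site.

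Each library of the first table held between 13.8 M and 19.4 M counts, each of the second between 29.1 M and 45.4 M, so the last 3 lines carry less counting error. Gene-wise spread between libraries also differed: the common biological coefficient of variation was 0.183 in DLD1, 0.159 in SW948, 0.122 in HCT116 and 0.11 in LoVo, and 0.0936 in HT29, 0.0741 in SKCO1 and 0.0692 in SW1417. A pair of libraries stood apart in how their counts depended on transcript length, DLD1 control replicate 1 (slope -0.28) and SW948 2-MiCit replicate 2 (slope -0.23). The summed level of 8 epithelial markers was between 3765 and 15200 CPM (counts divided by library size, scaled with TMM factors within the line) in every library. Fibroblast, leukocyte and endothelial markers that were in the tables summed to at most 23.1, 2.26 and 1.94 CPM. In HCT116 the epithelial sum was 5129 to 5923 CPM with 2-MiCit and 3765 to 4192 CPM in controls, and its part in the results on synthetases was not tested. In bulk RNA, fewer cells of a kind and less RNA per cell cannot be told apart.

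Levels of the enzymes in untreated cells give the scale for what follows. Per kilobase of transcript, KARS1 was the highest of the 36 in HCT116 controls at 116 CPM per kb, and VARS2 the lowest at 1.52 CPM per kb. SARS1, the seryl enzyme, was the highest in HT29 controls at 268 CPM per kb, and CARS1, the cysteinyl enzyme, the lowest there at 0.14 CPM per kb. In the controls of the other lines CARS1 had between 10.6 and 49.3 CPM per kb. VARS2, the mitochondrial valyl enzyme, was at 0 counts in all 8 libraries of SW948, which made it the only member that could not be tested in a line. These levels are scaled within each line and the tables were made separately, so they are given side by side and not tested between lines. Summed over the cytosolic list, the level in controls was between 2595 CPM in SW1417 and 5829 CPM in HT29, and over the mitochondrial list between 638 CPM in HT29 and 982 CPM in SW948.

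The calls among the synthetases differed in number and direction from line to line, as did the spread between libraries given above. Counted over lines, 27 of the 36 genes were called in at least 1 line, where called means a Benjamini-Hochberg adjusted p below 0.05 over all genes tested with edgeR's quasi-likelihood F test. That is 75% of the members, beside 43% of the 16813 genes tested in at least 1 line. The 44 calls were 10 higher and 34 lower with 2-MiCit: 9 higher and 27 lower calls among cytosolic enzymes, and 1 higher and 7 lower calls among mitochondrial ones. Of the 251 tests of members in a line, 3.98% were called higher and 13.5% lower, beside 5.28% and 5.32% of the 97023 tests of all genes. Whether the members stand apart from genes of like expression was not tested. A set of 5 cytosolic genes, AARS1, GARS1, MARS1, NARS1 and TARS1, was called higher in HCT116 and lower in at least 1 other line. The 9 genes called in no line were the cytosolic tryptophanyl enzyme WARS1 and the mitochondrial CARS2, EARS2, FARS2, LARS2, NARS2, PARS2, VARS2 and WARS2.

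**Figure D1:**
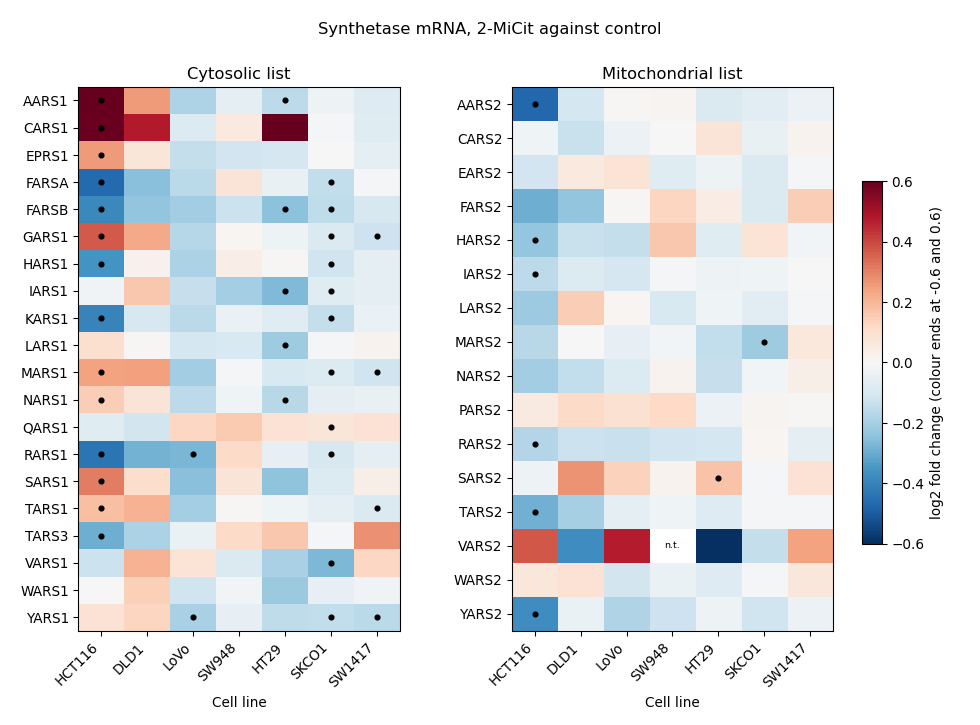
Log2 fold change of each synthetase (rows) with 2-MiCit against control in each line (columns), cytosolic list left and mitochondrial list right; red is higher with 2-MiCit, a dot marks an adjusted p below 0.05 and n.t. a gene not tested. Among cells with a dot, the highest and the lowest value are both in the HCT116 column (AARS1 0.60, AARS2 -0.47), and the DLD1 and SW948 columns have no dot. Colours end at -0.6 and 0.6; the deeper cells without a dot, CARS1 (0.67) and VARS2 (-1.11) in HT29, rest on few counts.

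In HCT116, cells of a colorectal carcinoma, cytosolic enzymes were called in both directions with 2-MiCit, and the mitochondrial enzymes that were called were all lower. Among all 13834 genes tested, 19% were called higher and 18% lower. Of the 20 cytosolic enzymes, 8 were called higher (AARS1, CARS1, GARS1, SARS1, EPRS1, MARS1, TARS1 and NARS1) and 6 lower (FARSA, RARS1, KARS1, FARSB, HARS1 and TARS3). Of the 16 mitochondrial enzymes 6 were called lower (AARS2, YARS2, TARS2, HARS2, RARS2 and IARS2), and those called higher numbered 0 by edgeR, by DESeq2 and at an unadjusted p below 0.05. The higher calls were thus 40% of the cytosolic list, and the lower calls 30% of the cytosolic and 37.5% of the mitochondrial list, in a line where 37% of all genes were called in either direction. Whether the lists stand apart from other genes was not tested.

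The alanyl enzyme AARS1 (GENCODE 29, GRCh38, chr16:70252295-70289543, minus strand) had 353, 360.1, 357 and 361 CPM in the 2-MiCit libraries, against 233, 243, 236 and 229 CPM in the controls. Every treated library was above every control library, and the difference was 1.52-fold (log2 fold change 0.60 ± 0.04 (SE), adjusted p = 1.31e-05). CARS1, the cysteinyl enzyme on chromosome 11, measured 70.1, 66.5, 70.8 and 65.9 CPM in the 2-MiCit libraries, against 46.4, 48.7, 42.6 and 43.2 CPM in the controls. Its groups were likewise apart, with a 1.51-fold higher mean estimate (log2 fold change 0.59 ± 0.06 (SE), adjusted p = 7.53e-05). For the glycyl enzyme GARS1 the values were 346, 359, 372 and 368 CPM in the 2-MiCit libraries, against 273, 281, 274 and 292 CPM in the controls. The lowest treated library was above the highest control (log2 fold change 0.37 ± 0.05 (SE), adjusted p = 0.00022). The other 5 higher calls were smaller: SARS1 (seryl) 0.31 ± 0.04, EPRS1 (the joint glutamyl and prolyl enzyme) 0.25 ± 0.08, MARS1 (methionyl) 0.24 ± 0.04, TARS1 (threonyl) 0.18 ± 0.04 and NARS1 (asparaginyl) 0.15 ± 0.05 on the log2 scale. Of the 8, only EPRS1 had overlapping groups, and its call was lost when any of 3 libraries was left out, as was that of NARS1 when any of 5 was.

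Lower in the same cells was RARS1, the arginyl enzyme of the complex, with 161, 149.6, 161 and 155 CPM in the 2-MiCit libraries, against 218, 208, 208 and 216 CPM in the controls. No treated library reached the lowest control, and the level was 1.36-fold lower (log2 fold change -0.44 ± 0.05 (SE), adjusted p = 7.87e-05). KARS1, the lysyl enzyme of both compartments, gave 202, 219.7, 213 and 214 CPM in the 2-MiCit libraries, against 259, 291, 281 and 291 CPM in the controls. Its groups did not overlap (log2 fold change -0.40 ± 0.05 (SE), adjusted p = 0.000279). Both subunits of the phenylalanyl enzyme fell together. The beta subunit FARSB had 134, 140.4, 139.5 and 135 CPM in the 2-MiCit libraries, against 168, 189.9, 176 and 182 CPM in the controls, a change of -0.38 ± 0.05 on the log2 scale (adjusted p = 0.000301), and the catalytic alpha subunit FARSA changed by -0.46 ± 0.06 (adjusted p = 0.000432). For both subunits all treated libraries were below all controls. The histidyl enzyme HARS1 had 122, 113, 122 and 116 CPM in the 2-MiCit libraries, against 153, 147, 154 and 152 CPM in the controls (log2 fold change -0.36 ± 0.05 (SE), adjusted p = 0.000276). These groups were apart as well. TARS3, a threonyl enzyme closely related to TARS1, was low, with 15.1, 14.6, 16.1 and 18.4 CPM in the 2-MiCit libraries, against 19.4, 18, 20.2 and 21.2 CPM in the controls. Here the highest treated library passed the lowest control (log2 fold change -0.29 ± 0.09 (SE), adjusted p = 0.0265), and the call was lost without any of 4 libraries.

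The largest fall among the mitochondrial enzymes of HCT116 was that of the alanyl enzyme AARS2, the counterpart of the gene with the largest rise. AARS2 had 20.0, 18.9, 18.9 and 20.2 CPM in the 2-MiCit libraries, against 27.6, 25.9, 28.9 and 25.7 CPM in the controls. Its treated libraries were all below its controls, 1.38-fold on the fitted estimate (log2 fold change -0.47 ± 0.07 (SE), adjusted p = 0.000463). The mitochondrial tyrosyl enzyme YARS2 had 38.6, 35.3, 35.5 and 32.8 CPM in the 2-MiCit libraries, against 45.5, 46.1, 48.5 and 44.4 CPM in the controls, again without overlap (log2 fold change -0.37 ± 0.06 (SE), adjusted p = 0.00141). HARS2, which charges mitochondrial histidine tRNA, showed 51.2, 44.1, 46.6 and 45.7 CPM in the 2-MiCit libraries, against 56.7, 53.4, 57.7 and 52.7 CPM in the controls (log2 fold change -0.23 ± 0.06 (SE), adjusted p = 0.016). Its groups were apart. TARS2 (threonyl), RARS2 (arginyl) and IARS2 (isoleucyl) changed by -0.29 ± 0.10, -0.17 ± 0.06 and -0.16 ± 0.04 on the log2 scale, with overlap between groups for TARS2 only. Leaving out single libraries kept AARS2, YARS2 and HARS2 below the threshold of 0.05 in all 8 refits. The number of mitochondrial genes called lower fell to 3 without control replicate 2 and to 3 without 2-MiCit replicate 2. Lower calls among all genes were 1971 and 2011 without these libraries, in place of 2489.

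**Figure D2:**
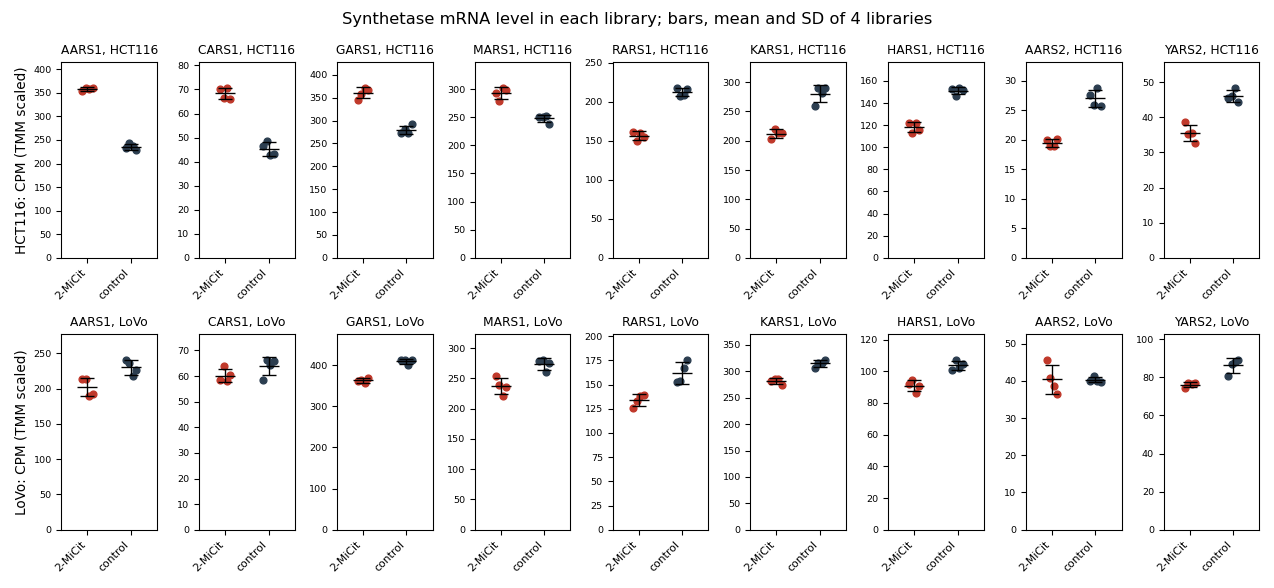
Level in CPM (linear axis from 0) of 9 synthetases in each library of HCT116 (top row) and LoVo (bottom row), 2-MiCit in red left of control in dark blue, with mean and SD of 4 libraries. In HCT116 the treated libraries of AARS1 (353 to 361 CPM) lie above the controls (229 to 243 CPM), whereas those of RARS1, KARS1, HARS1, AARS2 and YARS2 lie below theirs; in LoVo the treated libraries of AARS1, GARS1 and MARS1 lie below the controls.

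In DLD1 the estimates of several cytosolic enzymes pointed the same way as in HCT116, but 0 of 36 synthetases passed the adjusted threshold by edgeR, in a line where 0.148% of the 13551 genes tested did. At an unadjusted p below 0.05, 5 cytosolic enzymes were higher, 3 cytosolic and 1 mitochondrial enzyme lower, and DESeq2 called 3 higher and 1 lower. Over all 13551 genes, 1227 were higher and 1171 lower at that unadjusted cut, and DESeq2 called 347 higher and 164 lower. The smallest p was that of CARS1, which had 189, 187, 207 and 173 CPM in the 2-MiCit libraries, against 138, 139, 134 and 133 CPM in the controls. All treated libraries were above all controls, and the estimate was 1.39-fold (log2 fold change 0.48 ± 0.07 (SE), adjusted p = 0.0564). AARS1 had 154, 140.4, 145 and 136 CPM in the 2-MiCit libraries, against 103, 122, 132 and 125 CPM in the controls (log2 fold change 0.25 ± 0.09 (SE), adjusted p = 0.255). Control replicate 1, the library that stood apart, was the lowest of that group for AARS1 and for GARS1, whose estimate was 0.23 ± 0.09. Without it the adjusted p of CARS1 was 0.0106, the 1 call made, where 163 of all genes were called higher and 20 lower. The median change of the cytosolic list was then 0.01 in place of 0.09 on the log2 scale.

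In LoVo 2 cytosolic enzymes were called lower with 2-MiCit, and most of the others had estimates a little below 0. The 2 were RARS1 and the tyrosyl enzyme YARS1, in a line where 0.702% of 13677 genes were called lower, 1.59% higher and 2.3% either way. Estimates were below 0 for 18 of the 20 cytosolic enzymes, with a median of -0.16 on the log2 scale beside 0.00 for all genes. Over all genes 49.5% of estimates were above 0. The treated libraries of 12 of the cytosolic enzymes were all below their controls, and how many of all genes had groups apart was not counted. RARS1 had 125, 133, 138 and 139 CPM in the 2-MiCit libraries, against 153, 153, 167 and 176 CPM in the controls (log2 fold change -0.28 ± 0.06 (SE), adjusted p = 0.0432). YARS1 had 219, 207, 209.9 and 209.9 CPM in the 2-MiCit libraries, against 237, 245, 236 and 251 CPM in the controls (log2 fold change -0.20 ± 0.05 (SE), adjusted p = 0.0494). Both sets of groups were apart, with the treated libraries lower. GARS1, at 360.1, 364, 357 and 369.6 CPM in the 2-MiCit libraries, against 413, 412, 399 and 412 CPM in the controls, had groups as cleanly apart but an adjusted p of 0.0655 and a log2 fold change of -0.17 ± 0.04. The rest of those 12 included AARS1 (-0.19 ± 0.06, adjusted p = 0.102), SARS1 (-0.25 ± 0.06, adjusted p = 0.0501), MARS1 (-0.21 ± 0.05, adjusted p = 0.0681) and TARS1 (-0.21 ± 0.05, adjusted p = 0.0545). Many of these values lie close to the threshold, so the number called moves with small changes: DESeq2 called 12 members lower, and leaving out 1 library gave 7 (without control replicate 1), 6 (without control replicate 4) or 0 (without any one of the other 6). The lower calls over all genes moved too: 96 by edgeR, 490 by DESeq2, 540 without control replicate 1 and 200 without control replicate 4. Without any one of the other 6 libraries they were 4 to 38. Among the 16 mitochondrial enzymes, 3 were lower at an unadjusted p below 0.05 and 0 after adjustment with edgeR, 1 with DESeq2. At the unadjusted cut 1505 of all 13677 genes were lower. YARS2 had 74.4, 76.9, 76.4 and 76.8 CPM in the 2-MiCit libraries, against 80.5, 87, 88.1 and 89.3 CPM in the controls there (log2 fold change -0.18 ± 0.05 (SE), adjusted p = 0.0916), with groups apart.

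In SW948 none of the 35 synthetases tested was called by edgeR or DESeq2, nor was any at an unadjusted p below 0.05, in a line where 0% of 13334 genes were called and 479 genes were higher and 409 lower at an unadjusted p below 0.05. The member with the smallest p was FARSB, with 199, 192, 189 and 210.2 CPM in the 2-MiCit libraries, against 213, 217, 214 and 219 CPM in the controls (log2 fold change -0.13 ± 0.06 (SE), adjusted p = 0.522). Its treated libraries were all below its controls, the only case of groups apart among the members in this line. The share of all genes with groups apart was not counted here either. Estimates lay between -0.20 and 0.16 on the log2 scale. Without 2-MiCit replicate 2, the library that stood apart, the count of called members was also 0.

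In HT29 the calls were 5 cytosolic enzymes lower, AARS1, FARSB, IARS1, LARS1 and NARS1, and the mitochondrial seryl enzyme SARS2 higher, against 3.02% of 13887 genes called lower, 4.65% called higher and 7.67% called either way. IARS1, the isoleucyl enzyme of the complex, had 556, 502, 563 and 543 CPM in the 2-MiCit libraries, against 661, 637, 662 and 644 CPM in the controls. The groups did not overlap, and the treated level was 1.2-fold lower (log2 fold change -0.27 ± 0.04 (SE), adjusted p = 0.00279). Its neighbour in the complex LARS1, the leucyl enzyme, had 258, 239, 264 and 263 CPM in the 2-MiCit libraries, against 293, 289, 304 and 302 CPM in the controls (log2 fold change -0.21 ± 0.04 (SE), adjusted p = 0.00827). Again every treated library was below every control. FARSB had 61.7, 64.8, 61.3 and 59.8 CPM in the 2-MiCit libraries, against 74.2, 79.1, 71.5 and 68.9 CPM in the controls (log2 fold change -0.25 ± 0.05 (SE), adjusted p = 0.0118), also apart. AARS1, called higher in HCT116, here had 454, 423, 464 and 447 CPM in the 2-MiCit libraries, against 506, 522, 496 and 472 CPM in the controls (log2 fold change -0.16 ± 0.04 (SE), adjusted p = 0.0374). Its highest treated library stayed below its lowest control, but the call held in only 1 of the 8 refits without a library. NARS1 changed by -0.17 ± 0.04 and SARS2 by 0.17 ± 0.05 on the log2 scale. The number of members called lower was 3 without control replicate 1, 2 or 3 or without 2-MiCit replicate 3 or 4. Lower calls among all genes were 175, 280, 153, 179 and 231 in these refits, in that order, in place of 419. SARS2 kept its call only without control replicate 2.

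SKCO1 had the most lower calls after HCT116, all of small size. The lower calls were 10 cytosolic enzymes (FARSA, FARSB, GARS1, HARS1, IARS1, KARS1, MARS1, RARS1, VARS1 and YARS1) and 1 mitochondrial enzyme (MARS2), and QARS1 was called higher, where 10.8% of 14651 genes were called lower, 8.1% higher and 18.9% either way. The changes of these 11 lay between -0.27 and -0.07 on the log2 scale. VARS1, the valyl enzyme, whose counts were uneven between libraries in other lines, had the largest, with 81.6, 86.2, 85.2 and 75.7 CPM in the 2-MiCit libraries, against 103, 92.1, 104 and 96.7 CPM in the controls (log2 fold change -0.27 ± 0.05 (SE), adjusted p = 0.0038). KARS1 had the smallest p of the members, with 255, 263, 267 and 264 CPM in the 2-MiCit libraries, against 289, 285, 293 and 289.8 CPM in the controls (log2 fold change -0.14 ± 0.02 (SE), adjusted p = 0.000496). For both genes all treated libraries were below all controls. YARS1 had 107, 111, 115 and 111 CPM in the 2-MiCit libraries, against 124, 121, 124 and 123 CPM in the controls (log2 fold change -0.15 ± 0.03 (SE), adjusted p = 0.00116). RARS1 had 136, 141, 141 and 137 CPM in the 2-MiCit libraries, against 148, 154, 146 and 145 CPM in the controls (log2 fold change -0.10 ± 0.02 (SE), adjusted p = 0.0139). These groups did not overlap either. FARSB and FARSA changed by -0.15 ± 0.03 and -0.15 ± 0.03, nearly the same amount for the 2 subunits. The mitochondrial methionyl enzyme MARS2 had 19, 18.1, 19.1 and 20.4 CPM in the 2-MiCit libraries, against 21.8, 23.7, 22.2 and 21 CPM in the controls (log2 fold change -0.21 ± 0.05 (SE), adjusted p = 0.00744), without overlap. The glutaminyl enzyme QARS1 changed by 0.07 ± 0.02 (adjusted p = 0.0346), and this call was lost without any of 5 libraries.

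In SW1417, 4 cytosolic enzymes were called lower, GARS1, MARS1, TARS1 and YARS1, where 4.05% of 14089 genes were called lower, 2.94% higher and 6.98% either way. YARS1 had 100.4, 98.2, 98.6 and 103 CPM in the 2-MiCit libraries, against 117, 111, 112 and 108 CPM in the controls (log2 fold change -0.16 ± 0.03 (SE), adjusted p = 0.00379). Its groups were apart and its call held in all 8 refits without a library. GARS1 had 121, 120.3, 121 and 130.0 CPM in the 2-MiCit libraries, against 133, 133, 133 and 136 CPM in the controls (log2 fold change -0.12 ± 0.03 (SE), adjusted p = 0.0148). Replicate 4 was the highest of both groups, and the treated libraries were all below the controls. MARS1 and TARS1 changed by -0.12 ± 0.03 and -0.09 ± 0.02 on the log2 scale. The number called lower was 1 without 2-MiCit replicate 1 or 3 and 2 without 2-MiCit replicate 2. Lower calls among all genes were 372, 303 and 344 without 2-MiCit replicates 1, 3 and 2, in place of 570. Mitochondrial enzymes called in either direction numbered 0 by both edgeR and DESeq2, with 1 higher at an unadjusted p below 0.05. At that unadjusted cut 1408 of all 14089 genes were higher.

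**Figure D3:**
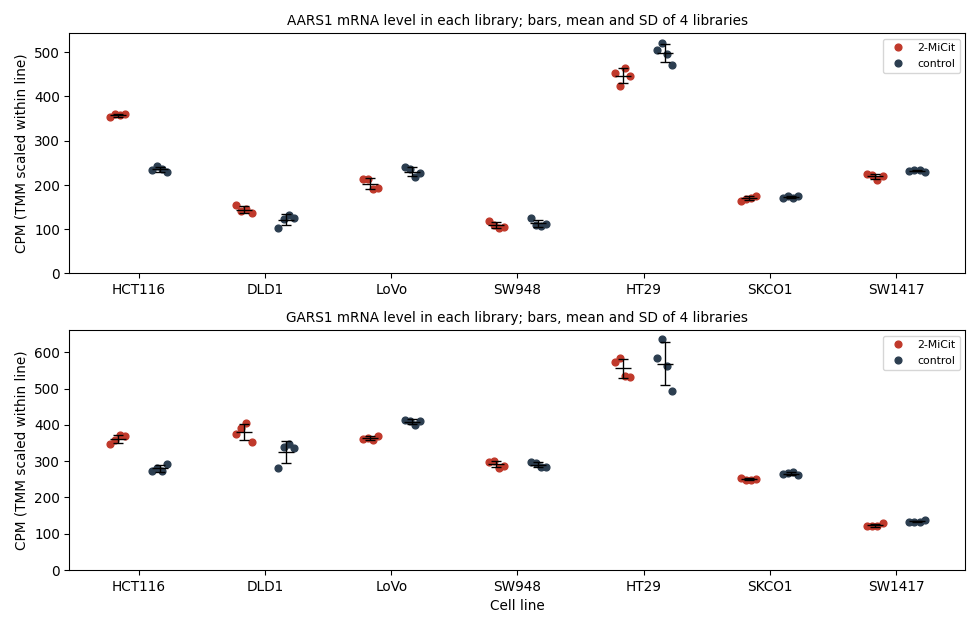
Level in CPM (linear axis from 0, scaled within each line) of AARS1 (top) and GARS1 (bottom) in each library of the 7 lines, 2-MiCit in red left of control in dark blue, with mean and SD of 4 libraries. The treated libraries lie above the controls in HCT116 and DLD1 and below them in LoVo for both genes; in SW948 the groups overlap, and in HT29 they are apart for AARS1 (423 to 464 against 472 to 522 CPM) but not for GARS1.

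The response itself was compared between lines through the treatment-by-line terms of 1 fit per table, where the estimates of a line differ slightly from those of its own fit. Across HCT116, DLD1, LoVo and SW948, 14 of 20 cytosolic and 2 of 16 mitochondrial enzymes were called as differing, beside 18% of 15800 genes. The smallest adjusted p was that of AARS1 (1.92e-06), followed by GARS1 (4.5e-05). Between HCT116 and LoVo, where 6.04% of genes differed, 9 cytosolic enzymes had a higher change in HCT116 and 1 a lower one. For AARS1 the fitted changes were 0.62 in HCT116 and -0.17 in LoVo, a difference of 0.80 ± 0.09 on the log2 scale (adjusted p = 1.39e-06). For SARS1 the difference was 0.56 ± 0.08, and for GARS1 0.55 ± 0.08 (adjusted p = 5.22e-05 and 2.46e-05). KARS1, with an estimate below 0 in both lines, differed by -0.24 ± 0.07, and the mitochondrial AARS2 by -0.47 ± 0.12 (adjusted p = 0.0146).

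DLD1 and LoVo differed in 0.506% of genes, and 6 of the 20 cytosolic enzymes were among them, all with the higher change in DLD1: AARS1, GARS1, MARS1, SARS1, TARS1 and YARS1. Without DLD1 control replicate 1, the library that stood apart, the cytosolic median in the fit of DLD1 alone was 0.01 in place of 0.09. The contrast of DLD1 and LoVo was not refitted without that library. MARS1 had a fitted change of 0.25 in DLD1 and one of -0.19 in LoVo, a difference of 0.44 ± 0.08 (adjusted p = 0.00289). All 6 were also among the 9 that were higher in HCT116 than in LoVo, and both comparisons use the LoVo libraries. HCT116 and DLD1 differed in 8.34% of genes and in 4 synthetases. AARS1 had the higher change in HCT116 (0.37 ± 0.09, adjusted p = 0.00918), and HARS1 (-0.37 ± 0.07), KARS1 (-0.28 ± 0.07) and YARS2 (-0.31 ± 0.08) had the lower one. HCT116 and SW948 differed in 18.7% of genes and in 15 synthetases, 6 with the higher and 9 with the lower change in HCT116. DLD1 and SW948 differed in 13.2% of genes and in 4 synthetases, of which AARS1 and MARS1 had the higher and QARS1 and RARS1 the lower change in DLD1 (adjusted p between 0.0269 and 0.0354). In their own fits DLD1 had 20 genes called and SW948 0, whereas the shared fit called 733 higher and 619 lower in DLD1. The shared fit takes 1 spread per gene over lines whose common variation was 0.11 to 0.183. Contrasts with DLD1 or SW948, the lines of widest spread, are less certain than their p-values show. Between LoVo and SW948, where 0.038% of genes differed, 0 synthetases were called, with 8 at an unadjusted p below 0.05. How many of all genes passed that unadjusted cut was not counted.

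Across HT29, SKCO1 and SW1417, 3 cytosolic enzymes were called as differing, beside 5.49% of 16090 genes: LARS1 (adjusted p = 0.00143), IARS1 (0.00448) and SARS1 (0.0448). LARS1 had fitted changes of -0.22 in HT29 and 0.03 in SW1417, a difference of -0.24 ± 0.04 (adjusted p = 0.00126). The change of IARS1 in HT29 differed from that in SW1417 by -0.22 ± 0.04 and from that in SKCO1 by -0.19 ± 0.04 on the log2 scale. SARS1, with an estimate of -0.24 ± 0.07 in HT29 (adjusted p = 0.0555), differed from SW1417 by -0.29 ± 0.07 (adjusted p = 0.0263). HT29 and SW1417 differed in 3.44% of all genes and HT29 and SKCO1 in 4.14%. SW1417 and SKCO1 differed in 1.03% of genes and in 0 synthetases, with 4 at an unadjusted p below 0.05. The count of all genes at that unadjusted cut was not made. No test was made between a line of one table and a line of the other.

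Some members had estimates of 1 sign in every line. FARSB, KARS1, TARS2 and YARS2 had an estimate below 0 in all 7 lines. Their estimates nearest 0 were -0.09, -0.04, -0.01 and -0.03 on the log2 scale, in that order. How many of all genes had 1 sign in all 7 lines was not counted. FARSB ranged from -0.38 in HCT116 to -0.09 in SW1417 and was called lower in HCT116, HT29 and SKCO1. RARS1 was called lower in HCT116, LoVo and SKCO1, and YARS1 in LoVo, SKCO1 and SW1417. QARS1 was above 0 in 5 of 7 lines, between -0.11 and 0.16, and called only in SKCO1. PARS2, the mitochondrial prolyl enzyme, was above 0 in 6 of 7 lines, between -0.04 and 0.12, and passed the test in no line. WARS1 lay between -0.22 and 0.14.

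Comparing the compartments within a line, the cytosolic list had a median log2 fold change of 0.04 and the mitochondrial list one of -0.17 in HCT116, beside 0.03 for all genes. In the same order (cytosolic, then mitochondrial) the medians were 0.09 and -0.09 in DLD1. With the length trend removed they were 0.10 and -0.03 there. The mitochondrial median of DLD1 was -0.03 without 2-MiCit replicate 1 and between -0.09 and -0.06 without any other single library. Its cytosolic median was 0.01 without control replicate 1. LoVo cells had medians of -0.16 and -0.04, and SW948 cells -0.01 and -0.01. The medians were -0.10 and -0.05 for HT29, -0.08 and -0.04 for SKCO1, and -0.05 and 0.00 for SW1417, with all-gene medians between 0.00 and 0.01 in these 6 lines. Lower calls took 50% of the cytosolic and 6.25% of the mitochondrial list in SKCO1, where 10.8% of all genes were called lower. They took 25% of the cytosolic list in HT29 (3.02% of all genes), 20% in SW1417 (4.05%) and 10% in LoVo (0.702%). In HCT116 the range of the cytosolic list, from -0.46 to 0.60, was wider than its median shows. Of the 7 enzymes of the multisynthetase complex, 2 were called higher and 2 lower there, against 6 and 4 of the 13 outside it. Among all genes of HCT116, 19% were called higher and 18% lower. A difference between the enzymes inside and outside the complex was not tested.

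**Figure D4:**
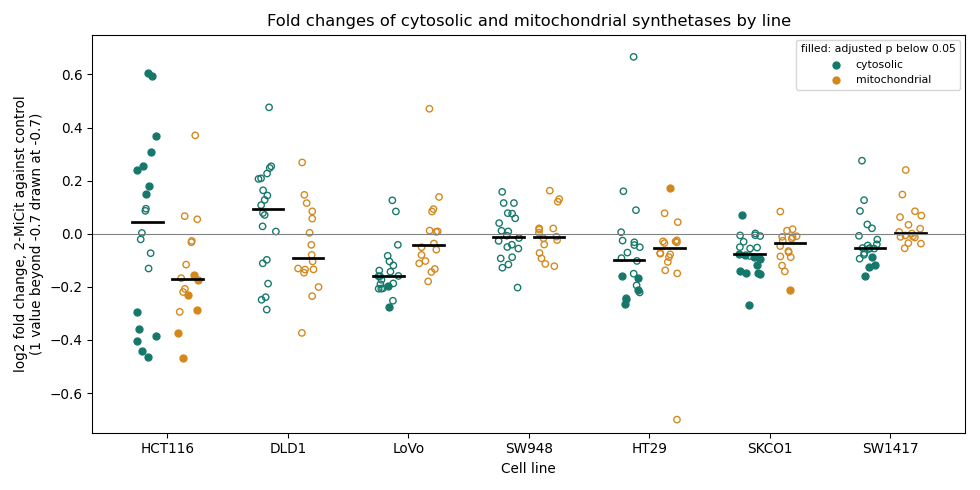
Log2 fold change with 2-MiCit against control of each cytosolic (green) and mitochondrial (orange) synthetase in each line, filled where the adjusted p was below 0.05, with a bar at the median of the list. Cytosolic points in HCT116 spread from -0.46 to 0.60 around a median of 0.04 while most mitochondrial points lie below 0; in LoVo the cytosolic median is -0.16. VARS2 in HT29, at -1.11, is drawn at the lower edge of the points.

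Summed over a list, the cytosolic enzymes of HCT116 made up 4683 ± 112 CPM with 2-MiCit and 4488 ± 158 CPM in controls, and the mitochondrial enzymes 677 ± 10.0 CPM with 2-MiCit and 761 ± 15.0 CPM in controls (SD, n = 4 each). The cytosolic sum was thus 6.91 ± 0.21 times the mitochondrial one with 2-MiCit and 5.90 ± 0.13 times in controls, and the libraries did not overlap (6.62 to 7.08 with 2-MiCit, 5.77 to 6.07 in controls). In DLD1 this ratio was 6.76 ± 0.26 with 2-MiCit and 6.10 ± 0.12 in controls, and in LoVo 4.56 ± 0.05 with 2-MiCit and 4.84 ± 0.14 in controls. SW1417 had 3.09 ± 0.03 with 2-MiCit and 3.19 ± 0.03 in controls. HT29 had 8.56 ± 0.48 with 2-MiCit and 9.14 ± 0.24 in controls, and SKCO1 4.89 ± 0.02 and 4.99 ± 0.05 in the same order. The libraries did not overlap in these lines either, with the treated ones higher in DLD1 and lower in LoVo, SW1417, HT29 and SKCO1. In SW948 they overlapped, at 3.60 ± 0.08 with 2-MiCit and 3.67 ± 0.03 in controls. How often sums of other genes had groups apart was not counted.

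The same contrast was read for single amino acids from the ratio of cytosolic to mitochondrial enzyme in each library, per kilobase, over 18 gene pairs of which some share a gene (FARSA and FARSB with FARS2, TARS1 and TARS3 with TARS2, EPRS1 with EARS2 and PARS2). In HCT116, 17 pairs could be read, and the ratio was above all controls in 9, below in 2 and overlapping in 6. No such count was made for other pairs of genes, so the counts of pairs have no baseline. For alanine the log2 ratio of AARS1 to AARS2 was 4.35 ± 0.05 with 2-MiCit and 3.27 ± 0.09 in controls (SD, n = 4 each), the widest shift of the set. Cysteine moved the same way, with -0.24 ± 0.05 under 2-MiCit and -0.87 ± 0.13 in controls. Arginine went the other way, with 1.96 ± 0.08 under 2-MiCit and 2.23 ± 0.09 in controls, as did histidine, with 0.86 ± 0.06 under 2-MiCit and 0.98 ± 0.05 in controls. In DLD1 the ratio was above all controls in 5 pairs (alanine, cysteine, methionine, asparagine and threonine with TARS1) and below in 0 of 17. In LoVo it was below all controls in 3 pairs, including serine at 2.80 ± 0.08 with 2-MiCit and 3.19 ± 0.12 in controls, and above in 0 of 17. HT29 had 3 pairs below, SW1417 4, SW948 2 and SKCO1 1, and these 4 lines had 0 above. The 2 pairs of SW948 are from a line where 0 of 13334 genes were called. The minimum of 10 counts for the mitochondrial partner left the valine pair readable in SKCO1 alone.

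**Figure D5:**
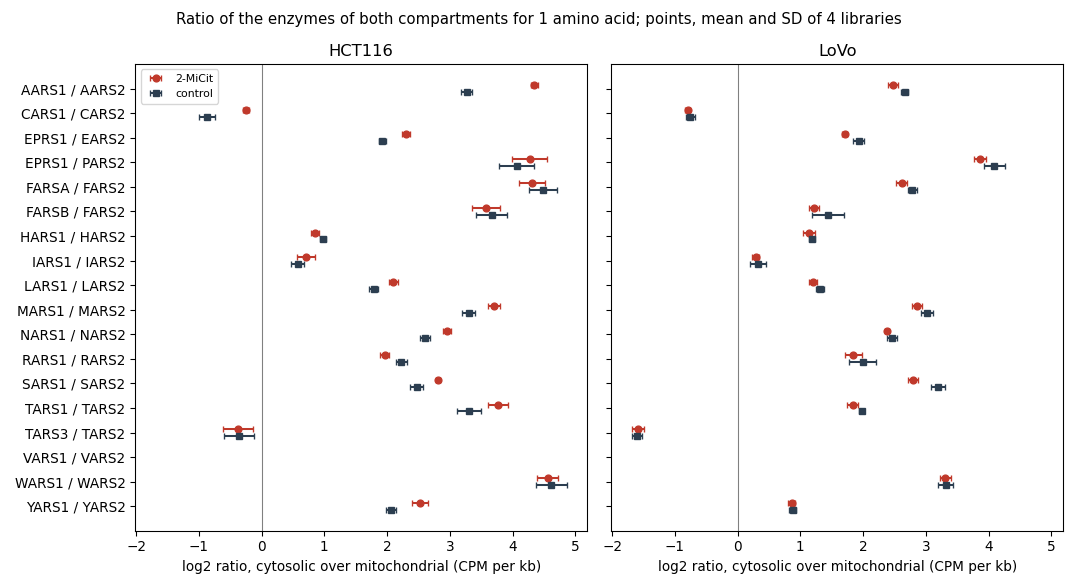
Log2 ratio of the cytosolic to the mitochondrial enzyme of the same amino acid (CPM per kb) in HCT116 (left) and LoVo (right), 2-MiCit as red circles just above control as dark squares, with mean and SD of 4 libraries; the valine pair was not read in these lines. In HCT116 the alanine ratio is 4.35 with 2-MiCit and 3.27 in controls; in LoVo it is 2.47 with 2-MiCit and 2.66 in controls.

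Other genes of tRNA charging and of the ATF4 arm were read from the same fits. In HCT116, 8 of 11 genes of the GCN2 and ATF4 arm were called higher and 1 lower, in a line where 19% of all genes were called higher and 18% lower. ASNS, asparagine synthetase and an ATF4 target, had 374 ± 10.9 CPM with 2-MiCit and 126 ± 4.93 CPM in controls (SD, n = 4 each), a log2 fold change of 1.57 ± 0.05 (adjusted p = 1.29e-07), and PSAT1 of serine synthesis changed by 1.09 ± 0.05. In DLD1, with 0.148% of genes called higher, the arm had 2 higher calls, ATF3 (1.76 ± 0.10) and PPP1R15A (0.87 ± 0.08). In LoVo, with 0.702% called lower, it had 2 lower calls, ASNS (-0.29 ± 0.05) and PSAT1 (-0.23 ± 0.05), and in SW1417, with 4.05% called lower, also 2 lower, ASNS (-0.18 ± 0.03) and CHAC1, a glutathione-degrading enzyme (-0.43 ± 0.10). SKCO1 had 3 lower calls in the arm, beside 10.8% of all genes, and HT29 1 higher, beside 4.65%. In SW948 it had 0 calls by edgeR. AARS1 had an estimate above 0 in HCT116 and DLD1 and below 0 in the other 5 lines. These values stand side by side, and a link between them was not tested.

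Among the partners of the enzymes some genes were also called in HCT116, where 18% of all genes were called lower and 19% higher. Of the 4 GatCAB and formylation genes, GATB (-0.43 ± 0.06) and QRSL1 (-0.17 ± 0.05) were lower. Of the 4 mitochondrial translation factor genes read (TUFM, TSFM, GFM1 and GFM2), 3 were lower: GFM1 (-0.39 ± 0.06), TUFM (-0.37 ± 0.06) and TSFM. These same 3 were called lower in SKCO1, where 10.8% of all genes were, with TUFM at -0.12 ± 0.03. Of the 6 scaffold and editing genes, 2 were lower in HCT116, led by AARSD1, which removes wrongly loaded alanine tRNA (-0.54 ± 0.08), and 2 in LoVo (0.702% of all genes), AARSD1 (-0.48 ± 0.08) and the scaffold AIMP1 (-0.21 ± 0.05). Of the 10 genes of tRNA maturation and export, 2 were higher and 4 lower in HCT116, with the tRNA 3′ processing enzyme ELAC2 at -0.54 ± 0.05 and the tRNA methyltransferase NSUN2 at -0.48 ± 0.05, and 3 were lower in SKCO1. Of the 4 cytosolic elongation factor genes measured, EEF1A1 was higher in HCT116 (0.18 ± 0.06) and EEF2 in SW1417, where 2.94% of all genes were higher (0.12 ± 0.03). The genes SESN2 and EEF1B2 of these lists were not analysed here.

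A few members carry values that are less certain than their p-values show. HARS1 and HARS2 are close relatives that start back to back on chromosome 5, at 140691370 and 140691455 (RefSeq, GRCh38.p14), with 84 bases between the starts, so reads could be shared between them by the counting. In HCT116 both were called lower, HARS1 by -0.36 ± 0.05 and HARS2 by -0.23 ± 0.06, whereas in SKCO1 HARS1 changed by -0.12 ± 0.03 (called) and HARS2 had an estimate of 0.08 ± 0.03 (adjusted p = 0.108). TARS3 and TARS1 likewise share sequence, and they changed by -0.29 ± 0.09 and 0.18 ± 0.04 in HCT116. VARS2, in a region of chromosome 6 rich in alternative haplotypes, gave counts that jumped between libraries of a group, such as 6, 5.86, 10.1 and 10.3 CPM with 2-MiCit and 0, 9.39, 12 and 3.36 CPM in controls of HCT116, and passed the test in no line. VARS1, also in that region, was uneven in some lines: its DLD1 libraries had 171, 135, 139 and 148 CPM with 2-MiCit and 56.6, 151, 174 and 133 CPM in controls, and its SW948 libraries 72.8, 26.5, 57.7 and 21.1 CPM with 2-MiCit and 41.3, 24.8, 64.7 and 58.9 CPM in controls. CARS1 in HT29 had between 10 and 37 counts per 2-MiCit library and between 2 and 21 per control library, so its estimate of 0.67 ± 0.61 has an error nearly as large as itself.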

How the data were processed

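RNA from 7 cell lines was sequenced after poly(A) selection with a stranded Illumina kit, per the labels' protocols. The authors deposited raw counts per gene as whole numbers in 2 tables; the submitters' processing notes name the build GRCh38.p13 and the tools Salmon 1.5.0, Trimmomatic 0.39, bcl2fastq 2.20.0 and DESeq2. Salmon shares reads that match several transcripts, so near-identical genes are uncertain. The deposited normalized counts, a signal on a linear scale, were only compared with the raw counts.

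Each line was fitted alone with edgeR 4.0.16 in R 4.3.3 on the deposited counts (filterByExpr, TMM factors, robust quasi-likelihood F test, two-sided), with no covariate. P-values were Benjamini-Hochberg adjusted over all genes tested and called below 0.05, and the fits were tested on simulated data. Fold changes are 2-MiCit over control on the log2 scale, with standard errors from the same fit. Differences between lines were tested by the treatment-by-line terms of 1 fit per table, and 9 pairs of lines as contrasts. CPM uses TMM factors within a line, and levels per kb use the longest transcript of GENCODE 29. Motifs came from RefSeq promoters.

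The members and lists were chosen with earlier results of these data known, so no list was tested as a set. Values in every library are given for the members called in the same direction in the most lines, for those with the smallest p or largest change in a line, for those with the smallest p between lines, and for TARS3, HARS1 and HARS2. Alternatives were DESeq2 1.42.0, RLE factors, other filters, a length trend, 1 shared fit, a replicate block and leaving out each library. Identifiers without a symbol, 1140 in the first table and 1162 in the second, stayed in the fits.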

Additional observations from a re-analysis of the deposited data

Results flagged for a closer look

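The response to 2-MiCit differed between lines for 16 synthetases of the first table by the treatment-by-line test (adjusted p, edgeR). For cytosolic enzymes the values were 1.92e-06 for AARS1, 4.5e-05 for GARS1, 0.000156 for MARS1, 0.000209 for SARS1, 0.000526 for TARS1, 0.000643 for HARS1, 0.00149 for YARS1, 0.00212 for KARS1, 0.00317 for CARS1, 0.00768 for RARS1, 0.0106 for QARS1, 0.0163 for NARS1, 0.0288 for EPRS1 and 0.0339 for FARSA. For mitochondrial enzymes they were 0.0147 for AARS2 and 0.0441 for YARS2. In the second table they were 0.00143 for LARS1, 0.00448 for IARS1 and 0.0448 for SARS1.

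A single library lay far from the rest of its group for GARS1 in SW1417. Among 2-MiCit libraries replicate 4 had 130 CPM and the others 120.3 to 120.6 CPM, and among controls replicate 4 had 136 CPM and the others 133.1 to 133.3 CPM. These were 2 of 60 groups examined, and chance alone flags about 1 in 20.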

How the results depend on the processing

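None of the 44 calls changed sign under any alternative run; estimates near 0 were not followed. The mitochondrial medians of SW948 and SW1417, both near 0, changed sign without SW948 control replicate 3 (0.01) and without SW1417 2-MiCit replicate 3 (-0.0025). DLD1 had 0 members called higher and 0 lower in the fit of that line alone. Its higher calls were 3 with DESeq2 and 5 with 1 fit over all lines of the table. They were 1 with the stricter filter (10 CPM in 4 libraries) and 1 with the length trend removed. Its lower calls were 1 with DESeq2 and 2 with 1 fit. Among all genes of DLD1 the higher calls were 20, against 347, 733, 34 and 95 in the same order. The lower calls among all genes were 0, against 164 with DESeq2 and 619 with 1 fit. LoVo had 2 lower calls, and 12 with DESeq2, 10 with the length trend removed, 4 with the stricter filter and 1 with no filter. Over all genes of LoVo the lower calls were 96, and 490, 330, 125 and 65 in the same order. In HT29 SARS2 was lost with no filter (0 higher), and lower calls were 10 in place of 5 with 1 fit, where those over all genes were 1270 in place of 419. SKCO1 had 1 higher call, 2 with the stricter filter and 0 with 1 fit. Among all its genes the higher calls were 1187, and 1316 and 626 in the same order. SW1417 had 0 higher calls, 1 with DESeq2 and 1 with the stricter filter, and its 4 lower calls were 1 with 1 fit. Among all genes of SW1417 the higher calls were 414, and 442 and 521 in the same order. The lower ones were 570, and 227 with 1 fit. Differences between lines of the second table numbered 3, and 5 with DESeq2. The cause of these moves was not tested; DESeq2's own spread estimates and the shared spread of 1 fit are part of their construction.

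With the number of a library as a replicate block, HCT116 had 9 higher and 17 lower calls (8 and 12 without). HT29 had 1 and 7, SKCO1 1 and 11, and SW1417 1 and 4 (3 of its 4 calls kept and 1 lower call gained). LoVo had 0 and 1, DLD1 0 and 0, and SW948 0 and 0. Differences were 11 in the first table (16 without) and 5 in the second. Among all genes of HCT116 the block gave 3674 higher and 3348 lower calls, against 2635 and 2489 without. HT29 had 1150 and 1034, against 646 and 419, and SKCO1 1322 and 1853, against 1187 and 1589. SW1417 had 474 and 658, against 414 and 570. LoVo had 189 and 102, against 218 and 96, and DLD1 0 and 0, against 20 and 0. In no line did all 4 pairs of same-numbered libraries deviate together with a correlation above 0.1, so the numbers were not taken as pairs. These correlations were between 0.08 and 0.40 in HCT116 and between 0.01 and 0.11 in SW1417, and the lowest was below 0 in every other line. Whether same-numbered libraries of HCT116 share an effect was not tested.

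Leaving out 1 library gave 6 to 8 higher and 8 to 12 lower calls in HCT116, 0 to 1 higher in DLD1, 0 to 7 lower in LoVo, 0 to 1 higher and 3 to 6 lower in HT29, 0 to 1 higher and 9 to 11 lower in SKCO1, 0 to 1 higher and 1 to 5 lower in SW1417, and 13 to 17 and 2 to 4 differences in the first and second table. Calls kept in all refits were 14 of 20 in HCT116, 0 of 2 in LoVo, 3 of 6 in HT29, 9 of 12 in SKCO1 and 1 of 4 in SW1417. Among all genes the lower calls in these refits were 1971 to 2630 in HCT116, 4 to 540 in LoVo and 153 to 520 in HT29. They were 1147 to 1730 in SKCO1 and 303 to 670 in SW1417. The higher calls were 2041 to 2457 in HCT116, 1 to 163 in DLD1 and 299 to 594 in HT29. In SKCO1 they were 873 to 1264 and in SW1417 187 to 460. Counts were low for VARS2 and, in HT29, for CARS1, so their estimates are imprecise.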
